A study of Mus musculus with 24 samples.

Results

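Cholesterol synthesis, the conversion of cholesterol to bile acids and the transport of both were followed gene by gene in the livers of 24 mice. The set was chosen by name and holds 34 genes, 18 of sterol synthesis (with the sterol sensor Insig1 among them) and 16 of bile acid synthesis and of bile salt and sterol transport. Counts per mouse were held for 28 of them, 14 in each class, in a table of 1999 of the 56748 genes counted. The other 6 (Mvk, Pmvk, Mvd, Fdps, Hsd3b7 and Soat2) were followed by their place in the deposited enrichment tables.

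The livers came from 4 groups of 6 mice, 3 males and 3 females each. In GHR+/+ mice the gene of the growth hormone receptor is intact, while GHR-/- mice, the Laron mouse, have no functional receptor. Mice of the other 2 groups, AAV-HLP-mGHR (receptor-vector livers in what follows) and AAV-HLP-Luc (luciferase-vector livers), were also GHR-/- and received, at 4 to 5 weeks of age, 1 intraperitoneal dose of 4E10 vector genomes of an AAV of serotype 8, which carried the mouse receptor or luciferase. HLP is a promoter restricted to the liver, so only the liver of an AAV-HLP-mGHR mouse was given the receptor and the other organs stayed without it. Age at death was 30 to 31 weeks in injected and 21 weeks in uninjected mice. Age therefore cannot be told apart from injection between AAV-HLP-Luc and GHR-/- livers, nor from the partial return of the receptor between GHR+/+ and AAV-HLP-mGHR livers.

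Hepatocytes make cholesterol from acetyl-CoA through mevalonate, farnesyl diphosphate, squalene and lanosterol. The enzymes of this route are switched on together by the transcription factor SREBP2 when sterols run low in the endoplasmic reticulum, and Insig1 holds that factor back when sterols are plentiful. Cholesterol leaves the liver mainly as bile acids. Cyp7a1 opens the classical route, Cyp27a1 the alternative one, and a chain of ring reductases, peroxisomal enzymes and conjugating enzymes completes the molecule before the canalicular pumps move it into bile. Growth hormone, whose secretion follows a different rhythm in male and female mice, sets many sex differences of the rodent liver through STAT5.

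The stretches upstream of the canonical start sites show what most sterol genes share and most bile acid genes lack. Within the 250 bases before the start, the CCAAT box (letters CCAAT, either strand), the site of the factor NF-Y that works beside SREBP2, was found in 14 of the 18 sterol genes and in 4 of the 16 others, against 36.5% of 21757 protein-coding genes. A stricter sterol regulatory element (TCACNCCAC) was found in 1 sterol gene, Hmgcs1, in 0 of the 16 others and in 1.12% of all genes. The STAT5 palindrome (TTCNNNGAA) was found in Fdft1 and Ebp, in 1 of the 16 others, and in 7.70% of all. These are matches of letters in GRCm39 and no measure of binding. The windows counted were not freed of annotated exons. Those of Idi1, Fdft1, Tm7sf2, Nsdhl, Dhcr7 and Hsd3b7 lie in exons over all 250 bases, and many others do in part. Shown here, 5′ to 3′ on the strand of the gene and as far as no annotated exon is touched, are the first enzyme of sterol synthesis held, 2 later enzymes and Slc27a5, a bile acid gene and the gene of the set with the smallest adjusted p between GHR+/+ and GHR-/- livers. Capitals mark CCAAT or its reverse complement ATTGG.
Hmgcs1 promoter, chr13:120151785-120151914, plus strand: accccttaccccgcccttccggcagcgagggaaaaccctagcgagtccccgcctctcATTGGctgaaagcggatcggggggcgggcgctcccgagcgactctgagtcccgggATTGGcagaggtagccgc
Sqle promoter, chr15:59186632-59186868, plus strand: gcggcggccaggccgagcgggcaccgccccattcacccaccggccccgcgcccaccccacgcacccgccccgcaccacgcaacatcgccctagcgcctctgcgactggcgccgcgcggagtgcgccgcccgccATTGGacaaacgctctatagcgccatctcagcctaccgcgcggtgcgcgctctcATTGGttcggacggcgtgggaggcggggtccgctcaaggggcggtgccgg
Msmo1 promoter, chr8:65186831-65187076, minus strand: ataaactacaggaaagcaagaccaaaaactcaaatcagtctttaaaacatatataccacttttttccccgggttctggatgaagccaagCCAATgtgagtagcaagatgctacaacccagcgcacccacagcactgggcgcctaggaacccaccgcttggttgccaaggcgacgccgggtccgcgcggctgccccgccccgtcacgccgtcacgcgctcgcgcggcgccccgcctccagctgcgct
Slc27a5 promoter, chr7:12732138-12732387, minus strand: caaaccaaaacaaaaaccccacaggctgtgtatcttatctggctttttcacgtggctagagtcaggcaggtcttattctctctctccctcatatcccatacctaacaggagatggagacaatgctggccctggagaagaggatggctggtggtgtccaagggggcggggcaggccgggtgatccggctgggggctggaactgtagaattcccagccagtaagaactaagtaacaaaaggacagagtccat
Hmgcs1 and Sqle carry the box as ATTGG and Msmo1 as CCAAT, while none of the 3 motifs occurs in the Slc27a5 window. The sterol regulatory element of Hmgcs1 lies nearer to its start than the stretch printed.

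Total reads per library ranged from 31199807 to 47858687, and 72.4% to 90.3% of them lay in the table. The lowest count of any of the 28 genes in any mouse was 352, so counting error was small beside the differences between mice. Normalized counts are counts divided by a size factor per library. A gene is called when its adjusted p in limma-voom is under 0.05 over all genes tested. Ghr had a mean of 22574 normalized counts in GHR+/+, 2367 in GHR-/-, 2534 in luciferase-vector and 3928 in receptor-vector livers. Of 10 hepatocyte markers 9 were in the table, at a summed 3290320 to 6231800 normalized counts per mouse. None of 6 cholangiocyte markers was in it, and of the markers of endothelial and stellate cells 1 of 10 was (Dcn), of macrophages and leukocytes 3 of 10, and of erythrocytes 1 of 5. Between GHR+/+ and GHR-/- livers, the macrophage list had Cd74 called lower in GHR+/+ (log2 fold change -1.25), with a summed list of 9346 to 14667 against 10217 to 28729, and the erythrocyte gene Hbb-bs was called lower too (-0.56). The pericentral list (7 of 7 held, median log2 fold change -0.46) had Cyp2e1 lower (-0.67). The periportal list (8 of 8 held) had a median of -0.12, while its 1 called gene, Cyp2f2, was higher (0.94). The hepatocyte list itself had Ttr (-0.49) and Apoa2 (-0.81) lower and Fgb higher (0.70), and 0 of 9 mitochondrially encoded genes was called. Between receptor-vector and luciferase-vector livers 0 genes of these lists were called, against 1.55% of all genes. There the periportal list had a median log2 fold change of -0.47, with a summed list of 389924 to 526048 against 495019 to 738944. The median was 0.18 for the pericentral, -0.28 for the hepatocyte and -0.31 for the macrophage list. It was -0.07 for the mitochondrially encoded genes, 0.04 for Dcn and -0.08 for Hbb-bs. The part of these markers in the results was not tested, and in whole liver fewer cells of a type and less RNA per cell cannot be told apart.

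In the sterol genes, mice of the same group differed widely from each other. The median standard deviation between mice, on the log2 scale of the normalized count, was 0.35 over the 14 genes in GHR+/+, 0.56 in GHR-/-, 0.78 in luciferase-vector and 0.43 in receptor-vector livers. Over all genes in the table it was 0.17, 0.20, 0.23 and 0.18. The spread came from a few mice in which most of the 14 genes stood high or low together. GHR-/- female 134 was the highest of its group for 14 of 14 genes, GHR+/+ female 120 for 13, AAV-HLP-Luc male 005 for 13 and AAV-HLP-mGHR male 007 for 11. GHR-/- male 113 was the lowest of its group for 13 of 14, AAV-HLP-Luc female 016 for 11 and AAV-HLP-mGHR male 012 for 8. On the FPKM scale, which holds 12 of the 14 genes, the 4 high mice were highest for 12, 11, 11 and 10 and the 3 low mice lowest for 12, 9 and 9. GHR+/+ male 101, not counted as low here, was the lowest of its group for 6 of 14 by normalized count and 8 of 12 in FPKM. High and low mice were found in both sexes, and no group lacked one that stood high.

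**Figure D1:**
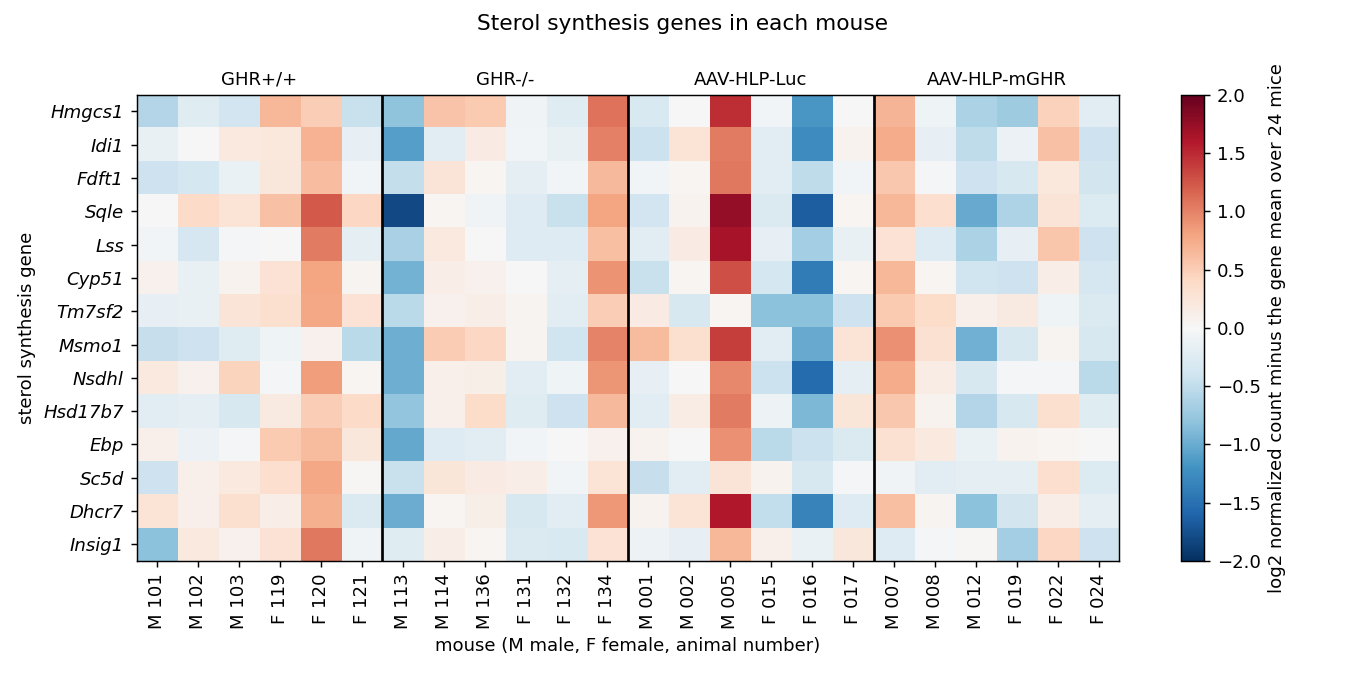
Sterol synthesis genes (rows) in each of the 24 mice (columns, by group and sex). Colour gives the log2 normalized count minus the gene's mean over the 24 mice. The same mice stand out gene after gene: GHR-/- female 134 and AAV-HLP-Luc male 005 as high, GHR-/- male 113 and AAV-HLP-Luc female 016 as low.

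The share of a library's reads that fell in the table was low in the low mice and high in the high ones, but not in them alone. It was 72.4% in male 113, 73.9% in female 016 and 77.5% in male 012, and 86.8%, 85.8%, 90.3% and 89.6% in the 4 high mice. AAV-HLP-Luc female 015, with 73.4%, was the lowest of its group for 1 gene only, and GHR+/+ female 121, with 86.3%, was the highest for 0. The part of this share in the spread was not tested.

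Hmgcs1 (ENSMUSG00000093930, chromosome 13, 120151915 to 120170470, GRCm39), the cytosolic HMG-CoA synthase, had a lowest, median and highest normalized count of 11661, 14142 and 27931 in GHR+/+ and 10002, 20948 and 37139 in GHR-/- livers. The AAV-HLP-Luc values were 7845, 17139.5 and 48821, and the AAV-HLP-mGHR values 10749.8, 15811 and 28148. All 4 groups overlapped, and the highest AAV-HLP-Luc value came from male 005. Idi1, the isomerase that readies the isoprenoid building block, ranged from 3944 to 7109 in GHR+/+ and from 2053 to 8824 in GHR-/- livers, and its log2 fold change was 0.19 (SE 0.28).

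Of the squalene and lanosterol enzymes, Sqle (ENSMUSG00000022351, chromosome 15, 59186869 to 59203043, GRCm39), the oxygen-dependent squalene epoxidase, varied most between mice. Its normalized counts were 3357, 4446 and 7888 (lowest, median, highest) in GHR+/+ and 969, 3042 and 5848 in GHR-/- livers, then 1081, 3121 and 11456 in AAV-HLP-Luc and 1675, 3422 and 5351 in AAV-HLP-mGHR livers. The GHR+/+ median lay above the other 3, while the ranges overlapped. Between GHR+/+ and GHR-/- livers the log2 fold change was 0.75 (SE 0.35, adjusted p = 0.132 in limma-voom), and the gene was called in 1 of 12 fits with a mouse left out, that without GHR-/- female 134. Its highest FPKM was 12.2 times its lowest over the 24 mice, the widest ratio of the sterol genes with FPKM. Fdft1, which joins 2 farnesyl units to squalene, and Lss, which closes squalene epoxide to lanosterol, had log2 fold changes of -0.06 (SE 0.20) and 0.13 (SE 0.24) in the same comparison.

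The enzymes from lanosterol to cholesterol gave small differences between GHR+/+ and GHR-/- livers. Ebp (ENSMUSG00000031168, chromosome X, 8050773 to 8059795, GRCm39), the sterol isomerase, had the smallest p of the 14 genes. Its normalized counts were 7212, 8778 and 12139 in GHR+/+ and 3860.2, 7155 and 8361 in GHR-/- livers (lowest, median, highest), which overlapped, and the log2 fold change was 0.46 (SE 0.19, adjusted p = 0.0925 in limma-voom). It was called with sex as a covariate and in the fit over all 24 libraries together. Msmo1, a methylsterol oxidase, pointed the other way with -0.37 (SE 0.27). The log2 fold changes of the other 6 lay between 0.10 for Hsd17b7, a ketosterol reductase, and 0.30 for Dhcr7, the last reductase of the route. Those of the lanosterol demethylase Cyp51, the sterol reductase Tm7sf2, the sterol dehydrogenase Nsdhl and the desaturase Sc5d were 0.19, 0.21, 0.29 and 0.11. Insig1, the sensor, had 0.18 (SE 0.24).

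Taking the 14 sterol genes as a list, 0 were called between GHR+/+ and GHR-/- livers, against 24.6% of all 1999 genes tested. At an unadjusted p under 0.05 there was 1, Ebp, against 39% of all genes. Values above 0 were found for 11 of 14, with a median log2 fold change of 0.19 beside 0.01 over all genes. Without GHR-/- male 113 the median was 0.02 with 9 of 14 above 0, and without GHR+/+ female 120 it was 0.05 with 8. With any other mouse left out it was 0.14 to 0.29, with 11 or 12 of 14 above 0. The size of the list's median thus hung on single mice, while its sign did not change.

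After return of the receptor to the liver, no sterol gene passed the threshold. Between receptor-vector and luciferase-vector livers 0 of 14 were called in limma-voom, against 1.55% of all genes tested. Beside 14.8% of all genes, 1 of the 14 had an unadjusted p under 0.05. That gene was Tm7sf2, with 4175, 5626 and 7374 normalized counts (lowest, median, highest) in AAV-HLP-mGHR and 2891, 3977 and 5733 in AAV-HLP-Luc livers, a log2 fold change of 0.49 (SE 0.20, adjusted p = 0.26). Its groups overlapped. Over the list, 6 of 14 were above 0 with a median of -0.05, beside -0.01 over all genes. Without AAV-HLP-Luc male 005, in which 13 of the 14 genes were the highest of the group, 12 of 14 were above 0 with a median of 0.24. Without AAV-HLP-Luc female 016 only 2 were, with a median of -0.25. Mice of the treated group moved it too, to 10 of 14 above 0 (median 0.05) without male 012, 8 of 14 (0.04) without female 019 and 4 of 14 (-0.18) without male 007, so the direction of the list hung on single mice of both groups.

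AAV-HLP-Luc and GHR-/- livers, which share the missing receptor and differ in vector and age, gave 0 called sterol genes of 14. Of 1998 genes tested 0% were called. At an unadjusted p under 0.05 there were 0 of the 14, against 3.4% of all genes. The median log2 fold change of the sterol genes was 0.05. This median was -0.22 without male 005, -0.09 without GHR-/- male 113, 0.22 without female 016 and 0.21 without GHR-/- female 134. GHR+/+ against AAV-HLP-mGHR livers gave 0 of 14, with 11.4% of all genes called, 12 of 14 above 0 and a median of 0.15, which without GHR+/+ female 120 became 7 of 14 and 0.01. With any other mouse of these 2 groups left out the median was 0.07 to 0.24. As GHR+/+ livers serve in both comparisons that hold them, their 2 medians are not independent.

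In GHR+/+ livers 1 of the 14 sterol genes was called between the sexes, a share below that of all genes. Male values were below female values for 13 of 14 genes, with a median log2 fold change of -0.46 (male minus female) beside -0.01 over all genes. Hsd17b7 (ENSMUSG00000026675, chromosome 1, 169777093 to 169796813, GRCm39) was the gene called, with 3122, 3188 and 2932 normalized counts in the 3 males and 4144, 5120.2 and 4758 in the 3 females. No male reached a female, and the mean in females was 1.52 times that in males (log2 fold change -0.60, SE 0.09, adjusted p = 0.0164) in limma-voom. The background was 13.1% of 1999 genes called. Males and females did not overlap for 5 of the 14 sterol genes (Fdft1, Sqle, Tm7sf2, Hsd17b7 and Ebp), against 38.9% of all genes. Scaling by library totals moved the median of all genes to -0.13 and that of the sterol genes to -0.58, with 14 of 14 lower, so relative to all genes it stayed close. Without female 120 the median was -0.25, with 12 of 14 lower. The call of Hsd17b7 was lost without male 103 (adjusted p = 0.0573), in the fit over all 24 libraries together (adjusted p = 0.377) and without male 102, as were all calls of the genes followed here, when 18 genes of the whole table were left.

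In the other groups no sterol gene was called between the sexes. GHR-/- males were lower than females for 13 of 14 genes, with a median of -0.23 that was -0.01 without male 113 and -0.02 without female 134, with 8 of 14 lower each time, and 0.0501% of all genes called. AAV-HLP-Luc males were higher for 13 of 14, with a median of 0.79 and 0.1% of all genes called. Their groups did not overlap for 5 of the 14, against 27.3% of all genes. The AAV-HLP-Luc median was 0.37 without male 005 and 0.53 without female 016. AAV-HLP-mGHR males were higher for 12 of 14, with a median of 0.13 and 0.05% of all genes called. That median was -0.12 without male 007, with 4 of 14 higher, -0.01 without female 019, with 7, and 0.43 without male 012. By the interaction of sex and group, 0 of 14 were called for GHR+/+ with GHR-/- and 0 for AAV-HLP-mGHR with AAV-HLP-Luc, where the background was 0.9% and 0% of all genes.

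Split by sex, AAV-HLP-mGHR males had lower values than AAV-HLP-Luc males for 13 of 14 sterol genes (median -0.29), and AAV-HLP-mGHR females had higher values than AAV-HLP-Luc females for 13 of 14 (median 0.33). Neither comparison called a sterol gene, and 0.35% and 0.45% of all genes were called. In females, Tm7sf2 was 5785, 4823 and 4175 in AAV-HLP-mGHR against 2901, 2891 and 3839.5 in AAV-HLP-Luc livers, and Ebp was 8207, 8105 and 7837 against 5383, 5814 and 6428. In both genes every AAV-HLP-mGHR female was above every AAV-HLP-Luc female, with adjusted p = 0.232 and 0.143 in limma-voom. Groups did not overlap for these 2 of the 14 sterol genes, against 19.7% of all genes. In females the median was -0.03, with 6 of 14 higher, without AAV-HLP-Luc female 016 and 0.07, with 9, without AAV-HLP-mGHR female 022. In males it was 0.10, with 11 of 14 higher, without AAV-HLP-Luc male 005 and -0.04, with 6, without AAV-HLP-mGHR male 012.

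The 4 sterol genes whose counts were not used were placed by the leading edges of the deposited tables. The leading edge of a gene set names the genes behind its score, a positive score meaning higher in the group named first, and gives a side without a size. For GHR+/+ against GHR-/- livers the mevalonate enzymes Mvk, Pmvk and Mvd and the farnesyl diphosphate synthase Fdps were in 4, 4, 7 and 75 leading edges of sets with a positive score and in 0 with a negative one. In females they were in 1, 12, 39 and 21 positive sets, and in males Fdps alone was, in 3, with the other 3 in 1 negative set each. Between receptor-vector and luciferase-vector livers the sides were opposite in the sexes. There, Mvk, Pmvk, Mvd and Fdps stood in 26, 28, 8 and 12 positive sets in females, and in 29, 4, 5 and 9 negative sets in males. In the held sterol genes each sex's median changed sign without 1 luciferase-vector mouse. Of their interactions of sex and group 0 of 14 were called. In GHR+/+ males against females, Pmvk and Mvd were in 40 and 54 negative sets, and Mvk and Fdps in none. Between AAV-HLP-Luc and GHR-/- livers Mvk was in 16 positive sets and Pmvk in 28 negative sets. With the sexes pooled, Mvk and Mvd were in 30 and 3 negative sets for receptor-vector against luciferase-vector livers, and Pmvk and Fdps in 1 set of each sign. For GHR+/+ against AAV-HLP-mGHR livers the 4 were in 25, 14, 23 and 60 positive sets and 0 negative ones. Sets share genes, and all were counted without a p-value threshold, so a number of sets is no measure of strength.

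Among the bile acid genes, several differed between livers with and without the receptor gene. Of the 14 held, 5 were called between GHR+/+ and GHR-/- livers, 2 higher (Scp2 and Cyp27a1) and 3 lower (Slc27a5, Akr1d1 and Abcg8), against 24.6% of all genes, 11.9% higher and 12.7% lower. With 5 of 14 the share lay above that background, and with 5 of all 28 genes below it. With a mouse left out, 3 to 5 of the 28 were called, and 3 (Cyp27a1, Slc27a5 and Abcg8) without GHR+/+ male 102 or 103, GHR-/- male 136 or GHR-/- female 131. The groups did not overlap for 2 of the 14 (Slc27a5 and Abcg8), against 13.8% of all genes. The spread between mice was smaller than in the sterol genes, with a median standard deviation of 0.32, 0.21, 0.32 and 0.25 (log2) in GHR+/+, GHR-/-, luciferase-vector and receptor-vector livers.

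**Figure D2:**
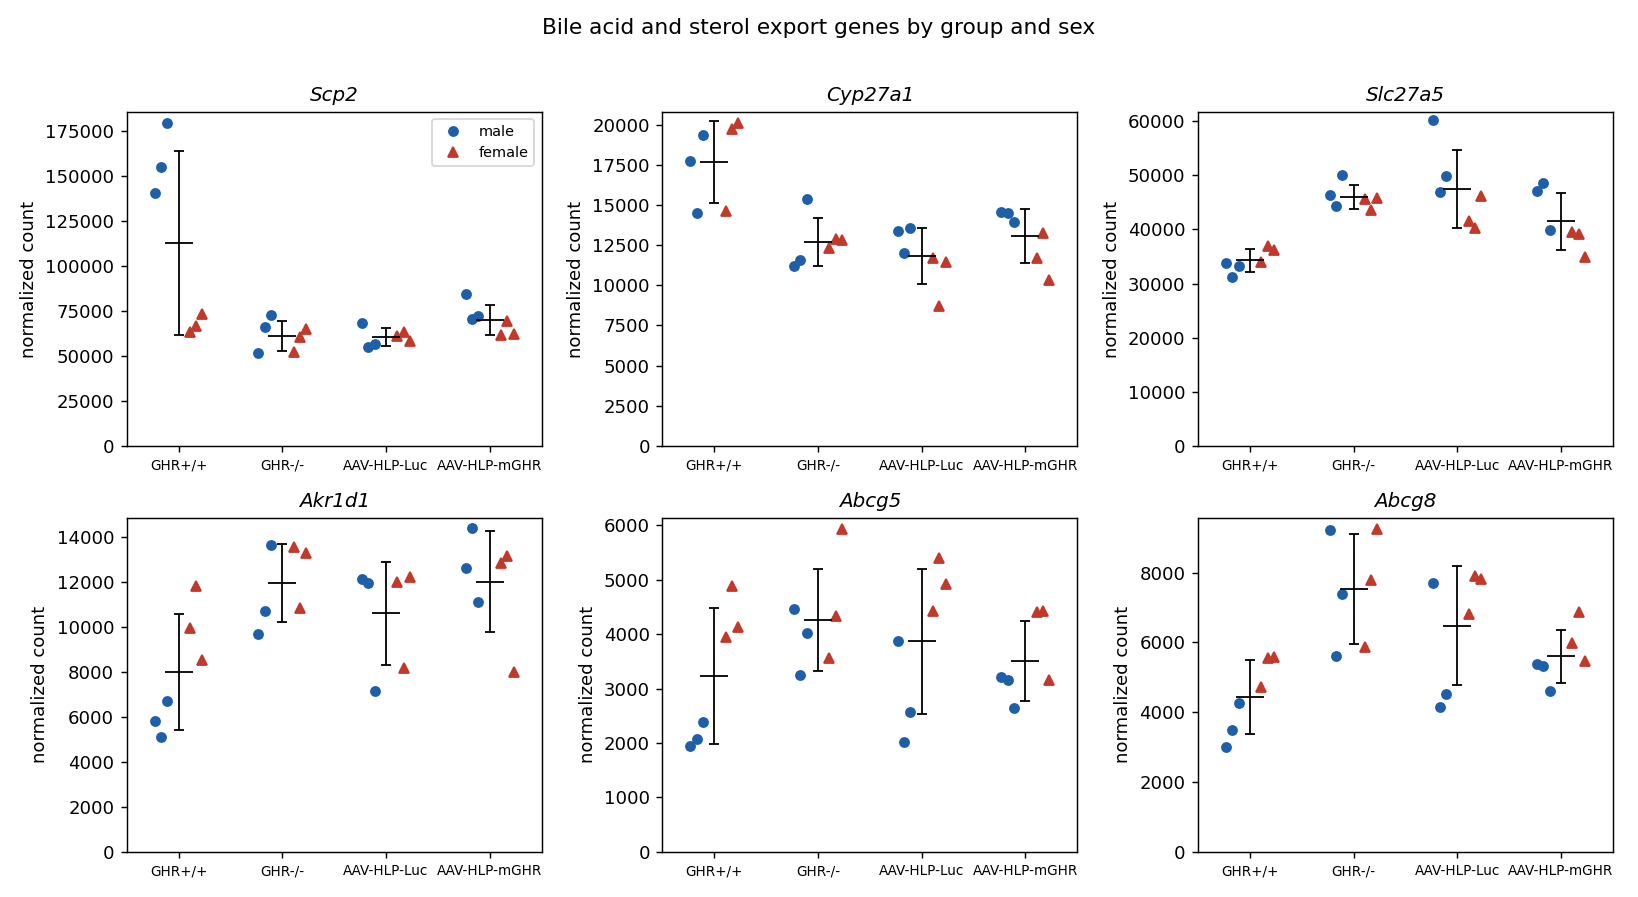
Normalized counts in each mouse, by group and sex, for the bile acid and sterol transport genes called between GHR+/+ and GHR-/- livers. Abcg5, called within males only, is shown too. Slc27a5 and Abcg8 lie lower in all 6 GHR+/+ mice than in any GHR-/- mouse, and the 3 GHR+/+ males stand apart from all other mice for Scp2.

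Cyp7a1 (ENSMUSG00000028240, chromosome 4, 6265612 to 6275633, GRCm39), the rate-limiting hydroxylase of the classical route, varied more between mice than any other gene of the set, with a highest FPKM 55.4 times its lowest. Its normalized counts were 1451, 6636 and 11171 in GHR+/+, 354, 4006 and 8955 in GHR-/-, 2305, 8038 and 10698 in AAV-HLP-Luc and 2743, 9917 and 17772 in AAV-HLP-mGHR livers (lowest, median, highest). The lowest value, 354, was in GHR-/- male 113 and the highest, 17772, in AAV-HLP-mGHR male 007. Every pair of groups overlapped. The log2 fold change was 0.79 (SE 0.75) between GHR+/+ and GHR-/- livers and 0.57 (SE 0.50) between receptor-vector and luciferase-vector livers, with adjusted p = 0.469 and 0.648 in limma-voom. A change of 2-fold, 1 on this scale, lay within 2 SEs of 0 in the first comparison. The 3 GHR-/- males had 354, 1622 and 3960.3 and the females 7164, 4053 and 8955, and the sexes did not overlap there, as for 12.9% of all genes, with a log2 fold change of -2.32 (SE 0.71, adjusted p = 0.511 in limma-voom). In FPKM, GHR+/+ males (8.71 to 39.5) also lay below females (45.2 to 69.1), where 38.9% of all genes did not overlap by normalized count. In AAV-HLP-Luc livers the male mean FPKM was the higher one, 58.4 against 31.1.

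Cyp8b1 (ENSMUSG00000050445, chromosome 9, 121743422 to 121745371, GRCm39), the hydroxylase that steers synthesis to cholic acid, was higher in male GHR+/+ livers. Males had 10258, 10698 and 7582 normalized counts and females 4994, 4595 and 5231, so the sexes did not overlap, as for 38.9% of all genes. The male mean was 1.93 times the female mean (log2 fold change 0.93, SE 0.14, adjusted p = 0.0152 in limma-voom). The call was lost without male 102 or female 120 (adjusted p = 0.0611 and 0.0519) and in the fit over all 24 libraries together (adjusted p = 0.377). In AAV-HLP-Luc livers the values were 16593, 5933 and 7279.9 in males and 2642, 2620.2 and 2147 in females, without overlap, as for 27.3% of all genes. Their log2 fold change of 1.87 (SE 0.36) missed the threshold (adjusted p = 0.243 in limma-voom). AAV-HLP-mGHR male 012, at 2787, and GHR-/- male 113, at 2247, lay far below the other males of their groups, and in these 2 groups the sexes overlapped. Between groups the log2 fold change was 0.33 for GHR+/+ against GHR-/- and 0.13 for receptor-vector against luciferase-vector livers, with SEs of 0.44 and 0.57.

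Cyp27a1 (ENSMUSG00000026170, chromosome 1, 74752314 to 74777056, GRCm39), the mitochondrial side chain hydroxylase, rose with the intact receptor. GHR+/+ livers had 14495, 18544 and 20094 normalized counts (lowest, median, highest) and GHR-/- livers 11173, 12579 and 15354. Values were 8713, 11862 and 13555 in AAV-HLP-Luc and 10339.7, 13606 and 14578 in AAV-HLP-mGHR livers. Only the top of the GHR-/- range crossed the bottom of the GHR+/+ range. The mean was 1.39 times that of GHR-/- livers (log2 fold change 0.47, SE 0.11, adjusted p = 0.00855) in limma-voom, and it was called in all 12 fits with a mouse left out. Against AAV-HLP-mGHR livers GHR+/+ livers were higher by 0.42 (SE 0.12, adjusted p = 0.0383), a call that held in 5 of 12 fits with a mouse left out and was lost when scaling by library totals (adjusted p = 0.114). It was the 1 gene of the 28 called there, with 11.4% of all genes called. Receptor-vector and luciferase-vector livers differed by 0.15 (SE 0.12, adjusted p = 0.632).

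**Figure D3:**
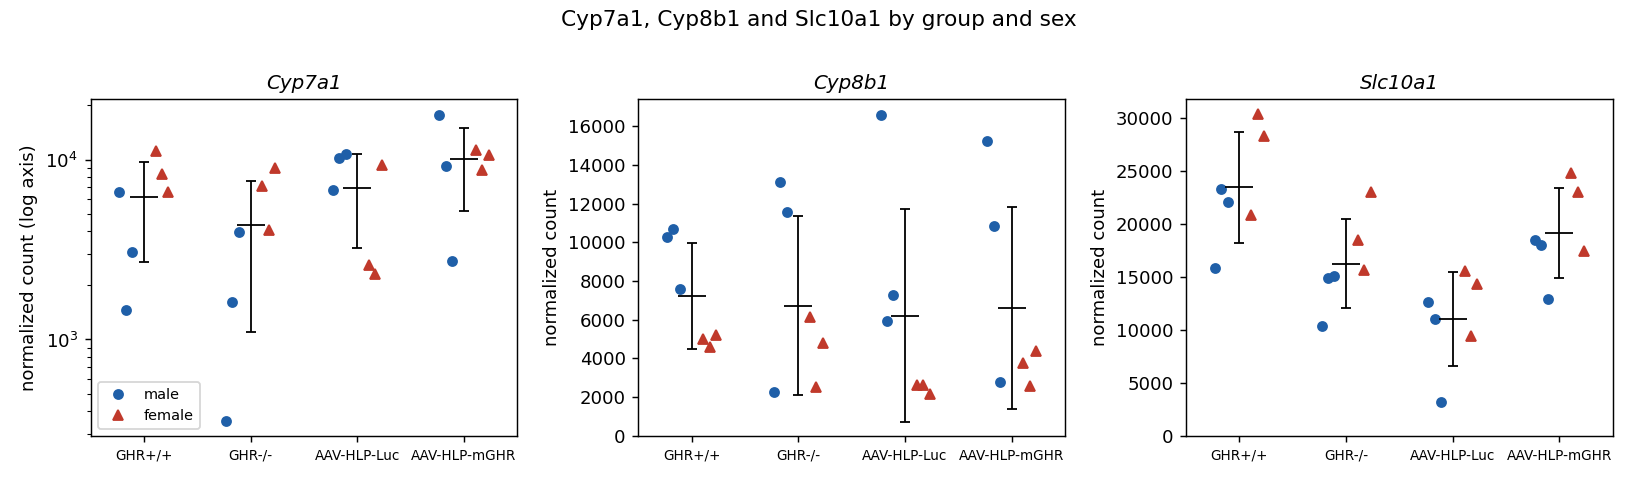
Normalized counts in each mouse for Cyp7a1, Cyp8b1 and the bile salt uptake gene Slc10a1, by group and sex. The axis is logarithmic for Cyp7a1 and linear for the others. Cyp7a1 and Cyp8b1 spread over several doublings within groups, and Slc10a1 is lowest in AAV-HLP-Luc male 005.

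Of the ring enzymes, Akr1d1 (ENSMUSG00000038641, chromosome 6, 37506822 to 37545751, GRCm39), which reduces the ring double bond that sets the bent shape of bile acids, was lower in GHR+/+ livers. Their normalized counts were 5129.9, 7618 and 11832 (lowest, median, highest) against 9679, 12068 and 13676 in GHR-/- livers (log2 fold change -0.63, SE 0.19, adjusted p = 0.0311) in limma-voom. Ranges overlapped because of the females. The 3 GHR+/+ males had 5820.1, 5129.9 and 6708, the 3 females 9973, 11832 and 8528, and the GHR-/- males 9679, 10727 and 13676. Within males the log2 fold change was -0.95 (SE 0.17, adjusted p = 0.00953), within females -0.32 (SE 0.15, adjusted p = 0.24), and their difference, the interaction, was -0.62 (SE 0.23, adjusted p = 0.262). GHR+/+ males were below GHR+/+ females by -0.78 (SE 0.15, adjusted p = 0.0292), a call lost in 4 of 6 fits with a mouse left out. The call between GHR+/+ and GHR-/- livers held in 6 of 12 fits with a mouse left out, with adjusted p up to 0.0683, and was lost when scaling by library totals (adjusted p = 0.0525). Akr1c6, an aldo-keto reductase of the hydroxysteroid dehydrogenase group, stood at 26451, 36281 and 40601 and 26786, 32444 and 34472 in the same 2 groups and was called in none of the 14 comparisons.

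Slc27a5 (ENSMUSG00000030382, chromosome 7, 12722273 to 12732137, GRCm39), the synthetase that links bile acids to CoA, gave the clearest difference. Its normalized counts were 31256, 33918 and 36914 (lowest, median, highest) in GHR+/+ and 43632, 45623 and 49984 in GHR-/- livers. All 6 GHR+/+ mice lay below all 6 GHR-/- mice. The GHR-/- mean was 1.34 times the GHR+/+ mean (log2 fold change -0.43, SE 0.07, adjusted p = 0.00128) in limma-voom, called in all 12 fits with a mouse left out and in all 5 other alternatives. AAV-HLP-Luc livers had 40323, 46498 and 60236 and AAV-HLP-mGHR livers 34869.5, 39658 and 48507, which overlapped each other, with a log2 fold change of -0.19 (SE 0.12, adjusted p = 0.481). GHR+/+ against AAV-HLP-mGHR livers gave -0.28 (SE 0.09, adjusted p = 0.0643). By sex the difference between GHR+/+ and GHR-/- livers was -0.52 in males (adjusted p = 0.0242) and -0.33 in females (adjusted p = 0.0689), without overlap in either, as for 42.9% and 32.7% of all genes. As a level, its mean FPKM of 465 over 24 mice was lower than that of Scp2 only.

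Scp2 (ENSMUSG00000028603, chromosome 4, 107901025 to 108002195, GRCm39) encodes both the peroxisomal thiolase that shortens the bile acid side chain and, from a start site within the gene, a small sterol carrier protein, and its count pools the 2 products. Males of the GHR+/+ group had 140686, 155002 and 179526 normalized counts, and the GHR+/+ females 63212, 66592 and 73441. The GHR-/- males had 51554, 66409 and 72654 and the females 52260.1, 60616 and 65226. Only the 3 GHR+/+ males stood apart, and the highest of the other 21 mice was AAV-HLP-mGHR male 007 with 84806.

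The GHR+/+ male mean of Scp2 was 2.34 times the GHR+/+ female mean (log2 fold change 1.22, SE 0.13, adjusted p = 0.00742) and 2.49 times the GHR-/- male mean (log2 fold change 1.32, SE 0.18, adjusted p = 0.00394), both called in limma-voom. Females of the 2 genotypes differed by 0.19 (SE 0.12, adjusted p = 0.353). The interaction of sex and genotype was 1.13 (SE 0.21, adjusted p = 0.0393). It was lost when scaling by library totals (adjusted p = 0.0758) and held in 4 of 12 fits with a mouse left out, with adjusted p up to 0.11. With the sexes pooled the log2 fold change was 0.78 (SE 0.26, adjusted p = 0.0462), called in 3 of 12 such fits and lost in limma-trend (adjusted p = 0.0536). In males of the vector groups, AAV-HLP-mGHR had 84806, 70423 and 72079 and AAV-HLP-Luc 68689, 54911 and 56982, which did not overlap, as for 23.2% of all genes, with a log2 fold change of 0.34 (SE 0.15, adjusted p = 0.443). The interaction there was 0.26 (SE 0.17, adjusted p = 0.711).

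The other side chain and conjugation genes gave no call. Baat, which joins bile acids to taurine, had log2 fold changes between -0.13 and 0.03 in the 4 comparisons of groups with the sexes pooled, with SEs of 0.11 or less. Amacr, the racemase of the side chain, stood at 3416, 4066 and 4919 normalized counts (lowest, median, highest) in AAV-HLP-mGHR and 4333, 5055 and 5679 in AAV-HLP-Luc livers. Between them the log2 fold change was -0.29 (SE 0.10, adjusted p = 0.204) and Amacr was 1 of 2 bile acid genes at an unadjusted p under 0.05, beside 14.8% of all genes. Acox2, the peroxisomal oxidase of branched side chains, differed by -0.13 between GHR+/+ and GHR-/- livers (SE 0.14). Neither Baat, Amacr nor Acox2 was called in any of the 14 comparisons.

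Bile salt transport was represented by Abcb11, the canalicular export pump, and Slc10a1, the uptake carrier of the sinusoidal membrane. Slc10a1 (ENSMUSG00000021135, chromosome 12, 80996372 to 81015479, GRCm39) had 15850.2, 22666 and 30359 normalized counts (lowest, median, highest) in GHR+/+, 10403, 15317 and 23004 in GHR-/-, 3165, 11841 and 15570 in AAV-HLP-Luc and 12902, 18248 and 24808 in AAV-HLP-mGHR livers. Both groups with a receptor lay higher on the median, and of the 6 pairs of groups all overlapped but GHR+/+ with AAV-HLP-Luc. GHR+/+ livers differed from GHR-/- livers by 0.54 (SE 0.19, adjusted p = 0.0575), called in 2 of 12 fits with a mouse left out. AAV-HLP-mGHR livers differed from AAV-HLP-Luc livers by 0.92 (SE 0.34, adjusted p = 0.228 in limma-voom). Of the latter, 0.59 was left without AAV-HLP-Luc male 005, whose 3165 was the lowest of all 24 mice. Within each sex the 3 receptor-vector mice all exceeded the 3 luciferase-vector mice, at 24808, 22992 and 17404 against 15570, 9457 and 14349 in females and 18477, 18019.7 and 12902 against 12639, 11043 and 3165 in males. Their adjusted p was 0.275 and 0.477 in limma-voom. Groups did not overlap for 19.7% of all genes in females and 23.2% in males. Abcb11 gave -0.03 (SE 0.15) and -0.06 (SE 0.19) in the 2 comparisons. Between AAV-HLP-Luc and GHR-/- livers it was the 1 gene of the 28 at an unadjusted p under 0.05 (-0.38, SE 0.17, adjusted p = 0.951 in limma-voom), against 3.4% of all genes.

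Abcg5 and Abcg8, partner transporters that together pump cholesterol into bile, are neighbours that read away from each other, with 12 bases between their canonical starts. Abcg8 (ENSMUSG00000024254, chromosome 17, 84983730 to 85007765, GRCm39) had 3014, 4492 and 5582 normalized counts (lowest, median, highest) in GHR+/+ and 5625, 7585 and 9262 in GHR-/- livers. The highest GHR+/+ mouse lay just under the lowest GHR-/- mouse. The GHR-/- mean was 1.7 times the GHR+/+ mean (log2 fold change -0.78, SE 0.18, adjusted p = 0.00874) in limma-voom, called in all 12 fits with a mouse left out. AAV-HLP-Luc livers had 4154, 7256 and 7915 and AAV-HLP-mGHR livers 4608, 5423 and 6874, with a log2 fold change of -0.17 (SE 0.17, adjusted p = 0.699).

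Abcg5 (ENSMUSG00000040505, chromosome 17, 84964851 to 84990494, GRCm39) followed sex in GHR+/+ livers. Its 3 males had 1940.4, 2069 and 2388 normalized counts and its 3 females 3948, 4883 and 4137, so that the female mean was 2.03 times the male mean (log2 fold change -1.02, SE 0.13, adjusted p = 0.00988) in limma-voom. GHR-/- males had 4453, 3252 and 4018. Within males GHR+/+ livers were lower by -0.87 for Abcg5 and -1.03 for Abcg8 (adjusted p = 0.0128 and 0.0162), and within females the values were -0.06 and -0.52 (adjusted p = 0.879 and 0.132). Interactions of -0.80 and -0.52 had adjusted p = 0.229 and 0.511, so a difference between the sexes was not shown. Both annotated genes overlap on opposite strands. The strand setting of the counting is not given in the sources used here, so how reads were shared between them is uncertain.

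By sex, the bile acid genes called in GHR+/+ livers were Scp2 and Cyp8b1, higher in males, and Akr1d1 and Abcg5, lower in males, 4 of 14 against 13.1% of all genes. Males and females did not overlap for 7 of 14, against 38.9%. In GHR-/-, luciferase-vector and receptor-vector livers 0 of 14 were called. An unadjusted p under 0.05 was found for 2, 3 and 4, against 8.01%, 14.5% and 16.4% of all genes. The sexes did not overlap for 2, 7 and 6 of 14 in these 3 groups, against 12.9%, 27.3% and 23.4%. Within males, 5 of 14 were called between GHR+/+ and GHR-/- livers (Scp2 higher, and Slc27a5, Akr1d1, Abcg5 and Abcg8 lower), against 19.8% of all genes. Within females 0 of 14 were, against 5.81%, with 4 at an unadjusted p under 0.05, against 24.6% of all genes. Of the interactions, that of Scp2 alone was called. The calls by sex in GHR+/+ livers all fell away without male 102, when 0 of the 28 genes were called, and 3 of the 5 between males of the 2 genotypes did so too (Slc27a5, Abcg5 and Abcg8). By sex 3 of 28 were left without female 120, and between males 3 were left without GHR-/- male 136. Markers moved with sex in GHR+/+ livers as well, with Alb (-0.57), Tat (-0.70), Rgn (-0.60) and Dcn (-0.76) called lower and Cyp2f2 (1.06) higher in males. The periportal list, which holds Cyp2f2, had a median log2 fold change of -0.25 there. The part of the markers in these differences was not tested.

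**Figure D4:**
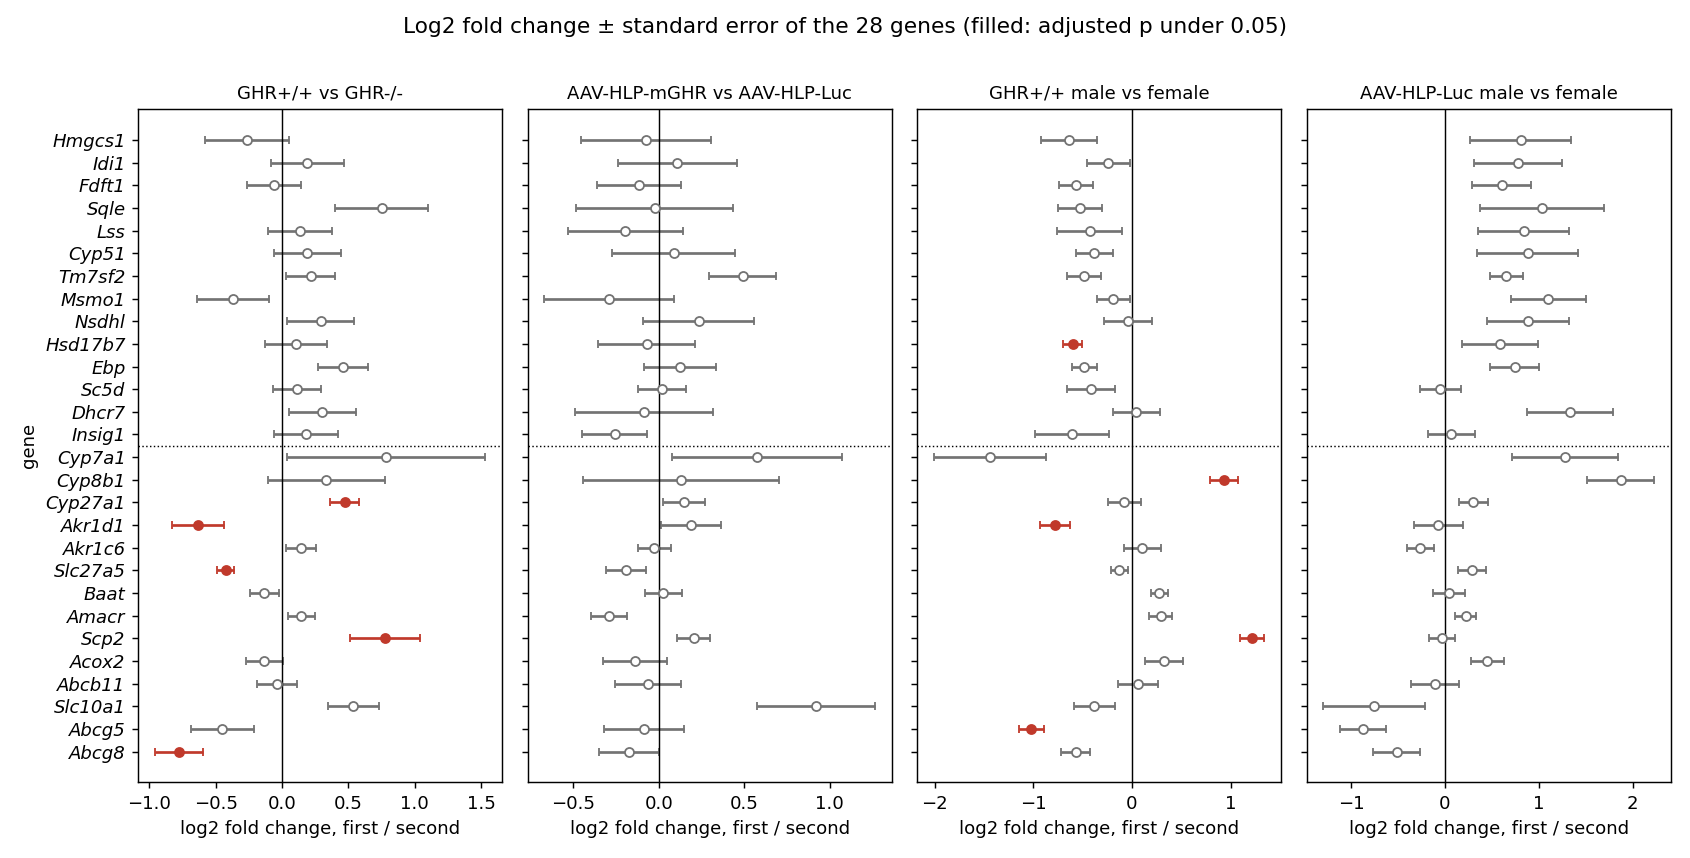
Log2 fold changes of the 28 genes with their standard errors for GHR+/+ against GHR-/- and AAV-HLP-mGHR against AAV-HLP-Luc livers, then males against females in GHR+/+ and in AAV-HLP-Luc livers. In the first comparison the 5 called genes are all bile acid genes, at 0.78, 0.47, -0.43, -0.63 and -0.78, and no gene is called in the second.

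For the return of the receptor, receptor-vector against luciferase-vector livers, the bile acid genes gave 0 calls of 14, against 1.55% of all genes. At an unadjusted p under 0.05 there were 2 (Slc10a1 and Amacr), against 14.8%. Values were above 0 for 7 and below 0 for 7, with a median log2 fold change of 0.00. The 5 genes called between GHR+/+ and GHR-/- livers had 0.20 (Scp2), 0.15 (Cyp27a1), -0.19 (Slc27a5), 0.19 (Akr1d1) and -0.17 (Abcg8) here, with SEs of 0.10, 0.12, 0.12, 0.17 and 0.17. All but Akr1d1 had the sign of the GHR+/+ comparison. A miss of the threshold does not show that the receptor vector left these genes as they were.

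Hsd3b7, the dehydrogenase of an early ring step, and Soat2, which esterifies cholesterol in the hepatocyte, were placed by leading edges. Hsd3b7 was in 7 sets with a positive score for GHR+/+ against GHR-/- livers and in 42 for AAV-HLP-Luc against GHR-/- livers, with 0 negative sets in both. In receptor-vector against luciferase-vector females it was in 9 negative sets. Soat2 was in 5 negative sets for GHR+/+ against GHR-/- livers, in 36 for males alone and in 6 positive sets for females alone. In GHR+/+ males against females it was in 42 negative sets. With the receptor vector it was in 52 positive sets in males and 13 negative sets in females. Both genes were in 0 leading edges for receptor-vector against luciferase-vector livers and for GHR+/+ against AAV-HLP-mGHR livers with the sexes pooled.

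On the FPKM scale, which divides by gene length, Scp2 had the highest mean level over the 24 mice, 582, then Slc27a5 with 465, Akr1c6 with 416 and Slc10a1 with 213. Ranges of neighbours in this order overlapped: 321 to 679 for Slc27a5 and 312 to 546 for Akr1c6. Of the sterol genes Sc5d (138), Insig1 (134) and Hmgcs1 (113) had the highest means and Hsd17b7 (20.2) and Sqle (18.9) the lowest. Cyp7a1, which opens the classical route, had a mean of 44.7, below Cyp27a1 (170) and Cyp8b1 (91.8). The narrowest ratios of highest to lowest mouse were those of Baat (1.62), Amacr (1.64) and Akr1c6 (1.75). FPKM were held for 25 of the 28 genes, all but Lss, Nsdhl and Abcg5.

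A list of 34 other genes of cholesterol and bile acid handling, 28 of them held, gave 10 calls between GHR+/+ and GHR-/- livers, 4 higher and 6 lower, against 24.6% of all genes called. Higher were Cyp2c70, which makes muricholic acids in the mouse (0.89), Abca1, the exporter of cholesterol to HDL (0.49), Fabp1, the liver fatty acid binding protein (0.46), and Nr1h4, the bile acid receptor FXR (0.40). Lower were the oxysterol hydroxylase Cyp39a1 (-1.70), the peroxisomal thiolase Acaa1b (-1.16), the exporters Abcc3 (-0.82) and Abcc2 (-0.48), the HDL receptor Scarb1 (-0.69) and Nr5a2, a nuclear receptor that acts on Cyp7a1 and Cyp8b1 (-0.31). Adjusted p in limma-voom ran from 0.00339 (Acaa1b) to 0.0386 (Cyp2c70). The groups did not overlap for 3 of these 28 genes, against 13.8% of all genes: for Cyp39a1, with means of 1015 and 3457 normalized counts, for Acaa1b with 25755 and 59758, and for Scarb1 with 6036 and 9772. Reads of Acaa1b and of Cyp2c70 are uncertain where the counting could split them with close paralogs.

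The same list gave 0 calls between receptor-vector and luciferase-vector livers, against 1.55% of all genes. It had 5 at an unadjusted p under 0.05, against 14.8%. GHR+/+ exceeded AAV-HLP-mGHR livers for Cyp2c70 (0.97, adjusted p = 0.00732) and Fabp1 (0.36, adjusted p = 0.0367). In GHR+/+ livers Cyp7b1, the oxysterol hydroxylase of the alternative route, had a mean of 20590.2 normalized counts in males and 1841 in females (log2 fold change 3.71, SE 0.45, adjusted p = 0.00982). The uptake carrier Slco1a4 (-2.71), Abcc3 (-0.86), the lysosomal sterol carrier Npc2 (-0.65) and Srebf2, the gene of SREBP2 (-0.50), were lower in males. Srebf2 had the direction of 13 of the 14 sterol genes in these 6 mice, at 2259 against 3212 (adjusted p = 0.04 in limma-voom). The call of Srebf2 was lost without male 101, 102 or 103 or female 119 or 120, each left out in turn. It was lost in the fit over all 24 libraries together too, and a link to the sterol genes was not tested. These 5 calls by sex stand beside 13.1% of all genes called, and the 2 against AAV-HLP-mGHR livers beside 11.4%. Within males, 3 of the list were higher and 6 lower in GHR+/+ than in GHR-/- livers, where 19.8% of all genes were called (higher Cyp7b1, Abca1 and Nr1h4, lower Acaa1b, Ephx1, Abcc3, Scarb1, Slco1a4 and Cyp39a1), led by Cyp7b1 with 20590.2 against 1309. Within females Fabp1 was higher and Cyp39a1 and Slco1a4 were lower, with 5.81% of all genes called. The interaction of sex and genotype was called for Cyp7b1 (3.67, adjusted p = 0.0393) and Abcc3 (-0.99, adjusted p = 0.0385). Without GHR+/+ male 102 the list gave 0 calls by sex in GHR+/+ livers, 4 calls within males and 0 interactions, and without GHR+/+ female 120 or 121, or GHR-/- female 132, 0 within females. Interactions of the list were also 0 without GHR+/+ male 103, GHR-/- male 136 or GHR-/- females 131 and 134, each left out in turn.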

How the data were processed

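Liver RNA of 24 mice was sequenced as stranded poly(A) libraries. The authors cleaned reads with fastp, mapped them to mm39 (Ensembl annotation) with Hisat2 and counted them per gene with featureCounts 1.5.0-p3, a version the submitters' processing notes give too. The deposited tables hold the authors' enrichment results for 9 comparisons and 16005 to 16047 gene sets each: an enrichment score, a normalized score, p-values, set size and the leading-edge genes. Of these only the leading edges and the sign of the normalized score were used, and the authors' values are not printed. The statistic that ranked the genes is not given in the sources used here.

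Counts and FPKM per mouse are the authors' supplementary counts, of which 1999 and 1301 of 56748 genes were held, the leading rows of tables shortened where they were read, all abundant (lowest mean count 1123), so shares of called genes describe those genes only. Library totals were worked back from counts and FPKM of 34 single-transcript genes. Size factors were medians of ratios to a mean library. The test was limma 3.58.1 (voom) in R 4.3.3, fitted for each comparison on its own libraries with the group (or, within a group, the sex) as its term, and with both and their interaction for the interactions. P-values were adjusted by Benjamini-Hochberg over all genes tested (threshold 0.05). Log2 values for spread used a pseudocount of 1. A group difference is the first group named minus the second. Each mouse has its own animal number and is 1 replicate. All genes of the set are named, with counts for the 28 held and leading edges for the other 6, and of the other cholesterol and bile acid genes those that were called in a comparison of groups or by sex are counted and named. The genes, the lists and the tests were chosen with earlier results of these data known. Alternatives were library totals, limma-trend, a minimum of 10 counts in every library, the fit over all 24 libraries together, sex as a covariate and leaving out each mouse in turn. The procedure was tested on simulated data. Coordinates are GENCODE M39 on GRCm39, and promoter sequence was read from that assembly, of which 1 stretch is not reported here. Python 3.11.15, pandas 2.3.3, numpy 2.4.6 and matplotlib 3.10.9 were used.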

Additional observations from a re-analysis of the deposited data

Results flagged for a closer look

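Of 112 groups of 6 mice tested (28 genes in 4 groups), 6 held a mouse far from the other 5 by Dixon's test at 95%, and chance alone gives about 1 in 20. AAV-HLP-Luc male 005 accounted for 3 of them. It was the highest of its group for Fdft1, with 14777 normalized counts against 5012 to 7333 in the others, and for Lss, with 9589 against 1920.0 to 3429. It was the lowest for Slc10a1, with 3165 against 9457 to 15570. GHR+/+ female 120 was highest for Lss, with 6321 against 2435 to 3103. AAV-HLP-mGHR female 022 was highest for Sc5d, with 31094 against 20243 to 23305. GHR-/- male 113 was lowest for Ebp, with 3860.2 against 6556 to 8361.

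The difference between GHR+/+ and GHR-/- livers was larger in males than in females for Scp2, by 1.13 on the log2 scale (SE 0.21, adjusted p = 0.0393 in limma-voom), and for Cyp7b1 by 3.67 (SE 0.70, adjusted p = 0.0393). For Abcc3 it was more negative in males, by -0.99 (SE 0.18, adjusted p = 0.0385). All 3 calls were lost without GHR+/+ male 102.

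In 3 genes the sexes stood apart without overlap in opposite directions in different groups, a difference that was not tested. Sexes without overlap were common, at 38.9% of all genes in GHR+/+, 12.9% in GHR-/-, 27.3% in luciferase-vector and 23.4% in receptor-vector livers. For Tm7sf2 the log2 fold change of males over females was -0.49 in GHR+/+ and 0.66 in AAV-HLP-Luc livers. For Ebp it was -0.48 in GHR+/+, -0.51 in GHR-/- and 0.74 in AAV-HLP-Luc livers. Slc27a5 gave -0.13 in GHR+/+, 0.29 in luciferase-vector and 0.26 in receptor-vector livers. None of these sex differences was called in limma-voom, and the injected mice were older than the uninjected ones.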

How the results depend on the processing

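Counts of called genes among the 28 were compared over 6 kinds of alternative, and no named value reversed its sign among the calls. Between GHR+/+ and GHR-/- livers the count was 5, and 4 to 7 under the 5 alternatives on all mice. Between GHR+/+ and AAV-HLP-mGHR livers it was 1 (Cyp27a1), but 0 with library totals, 4 in the fit over all 24 libraries together and 4 with sex as a covariate. By sex it was 5 in GHR+/+ livers, 3 in that fit over all libraries, and 0 in AAV-HLP-Luc livers, 1 (Abcg5) in it. The interaction of sex with GHR+/+ and GHR-/- was called for 1 gene (Scp2) and 0 with library totals. The cause of these moves was not tested. With a mouse left out in turn, the count was 3 to 5 for GHR+/+ against GHR-/- livers, 0 to 3 for GHR+/+ against AAV-HLP-mGHR, 0 to 7 for sex in GHR+/+, 2 to 7 for GHR+/+ against GHR-/- males, 0 to 1 for females, 0 to 1 for their interaction and 0 to 1 for females of the 2 vectors, and 0 in the other comparisons. No paired analysis was possible because each mouse has its own animal number and no number is shared between groups.

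Over the whole table, the count for the receptor vector against the luciferase vector was 31, 76 in the fit over all 24 libraries, 50 with sex as a covariate and down to 19 with a mouse left out. For GHR+/+ against AAV-HLP-mGHR livers it was 228, 145 with library totals and 357 with sex as a covariate. For sex in AAV-HLP-Luc livers 2 became 39 in the fit over all libraries, for sex in GHR+/+ livers 262 became 18 without male 102, and for the interaction 18 became 47 in limma-trend. The lowest count of the 28 genes in any mouse was 352, so counting error was small beside the spread between the 6 mice of a group.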

Other observations

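Cyp7a1 was looked up, after its values were seen, in the 7 mice in which most sterol genes stood high or low together. GHR+/+ male 101, the lowest of its group for 6 of 14 sterol genes (8 of 12 in FPKM), was not among them. Cyp7a1 was the lowest of its group in all 3 low mice, with 354 normalized counts in GHR-/- male 113, 2305 in AAV-HLP-Luc female 016 and 2743 in AAV-HLP-mGHR male 012. In the 4 high mice it was the highest of the group in 3, with 8955 in GHR-/- female 134, 10698 in AAV-HLP-Luc male 005 and 17772 in AAV-HLP-mGHR male 007. GHR+/+ female 120, with 8311, was exceeded by 1 mouse of its group. Cyp8b1 did not follow throughout: it was the lowest of its group in GHR-/- male 113 (2247) and the highest in AAV-HLP-mGHR male 007 (15234), yet the lowest in GHR+/+ female 120 (4595), a high mouse. Abcb11, the bile salt pump, was the highest of its group in 2 of the 3 low mice, GHR-/- male 113 (32598) and AAV-HLP-mGHR male 012 (29899), but not in AAV-HLP-Luc female 016 (17619.9). Feeding state and hour of death of each mouse are not given in the sources used here, and none of this was tested.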
